A study of Mus musculus with 4 samples.

Results

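The snoRNAs, small Cajal body RNAs, spliceosomal snRNAs and a few other structured noncoding RNAs were followed through 4 RNA sequencing libraries of primary mouse fibroblasts. They were chosen by symbol: every Ensembl ID of the count tables named Snord, Snora, Scarna or Rnu, or of the AF3573 and AF3574 names, together with Rmrp, Rpph1, Terc, Rn7sk and Vaultrc5. This gave 182 IDs with 173 symbols, of 55536 IDs in all. By name they fell into 109 C/D box IDs (Snord, with the U3 genes named Rnu3), 4 IDs of the AF357 group, 43 H/ACA box IDs (Snora and Rnu73b), 9 Cajal body IDs (Scarna), 11 other snRNA IDs and 6 other structured RNAs.

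The cells were grown from ear clippings of C57BL/6 mice, held for 48 h in KN93, which blocks the kinase CaMKII, and transfected for 24 h. The 4 groups were AF357425-High pulldown, AF357425-Low pulldown, AF357425-High whole-cell and AF357425-Low whole-cell, with 1 library each. High is labelled as overexpression and Low as inhibition of the C/D box snoRNA AF357425, while the treatment text names gapmers (antisense oligonucleotides) against it or a scrambled control, so the labels do not settle which agent stands behind each state. The pulldown used an antibody against fibrillarin, and its RNA was depleted of ribosomal RNA. No group has a replicate, so no difference between groups carries a p-value. Every interval is a 95% interval that covers counting error alone, as amplified fragments without molecular tags need not come from separate molecules.

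C/D box snoRNAs guide fibrillarin to RNAs, mostly ribosomal RNA, where it methylates the ribose, and a few of them, such as U3, U8 and U13, serve the processing or acetylation of ribosomal RNA instead. H/ACA box snoRNAs work with dyskerin and not with fibrillarin, and guide the conversion of uridine to pseudouridine. Small Cajal body RNAs carry C/D boxes, H/ACA boxes or both, and guide the modification of spliceosomal snRNAs. In mammals most snoRNAs are cut from the introns of host genes, whereas U8, U13, the snRNAs and 7SK have promoters of their own.

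Reads assigned to genes came to 25857770 in the High pulldown, 27832061 in the Low pulldown, 22082565 in High whole-cell RNA and 21693030 in Low whole-cell RNA. Summed fibroblast markers (7 genes, among them Col1a1, Pdgfra and Thy1) reached 3025 and 3585 CPM in the pulldowns and 10024 and 11532 CPM in whole-cell RNA, where CPM are reads scaled to the same total of gene-assigned reads in each library. Keratinocyte, endothelial, immune and melanocyte markers each summed to at most 1.71 CPM in any library, with Krt14, Krt1, Cd3e, Adgre1, Tyr and Dct at 0 in whole-cell RNA; smooth muscle markers summed to 2.67 and 3.70 CPM in the pulldowns and 2.35 and 1.75 CPM in whole-cell RNA, and chondrocyte markers to 96.0 and 118 CPM in the pulldowns and 258 and 185 CPM in whole-cell RNA. Mitochondrial ribosomal RNA filled 63.4% and 59.8% of the pulldown reads, against 0.0926% and 0.0583% of the whole-cell reads. Fragments that fell on more than 1 gene and were assigned to none made up 9.38% and 8.54% of the pulldowns and 1.05% and 1.09% of the whole-cell libraries. This bears on these RNAs, because the RefSeq spans of 151 of the 182 IDs overlap another gene (GRCm38.p6, either strand), 22 overlap none and 9 had no RefSeq entry under their symbol.

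Parts of some of these RNAs are known as microRNA hairpins, and for these the RefSeq sequence tables hold letters. The hairpins of 3 Cajal body RNAs are shown, since Scarna13 is one of the measured RNAs and Scarna3a and Scarna3b are a pair with near-identical stretches; capitals mark the mature microRNAs, and all are read 5′ to 3′ from GRCm38.p6.
Mir3069 in Scarna13, chr12:105031077-105031141, minus strand: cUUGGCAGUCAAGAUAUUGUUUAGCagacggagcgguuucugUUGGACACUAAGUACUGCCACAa
Mir1843a in Scarna3b, chr12:80391613-80391677, minus strand: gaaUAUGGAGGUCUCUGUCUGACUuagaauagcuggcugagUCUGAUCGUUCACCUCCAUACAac
Mir1843b in Scarna3a, chr1:159340358-159340423, plus strand: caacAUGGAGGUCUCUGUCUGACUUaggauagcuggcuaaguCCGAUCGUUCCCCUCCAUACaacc
All 65 nt of the Mir3069 hairpin and all 66 nt of the Mir1843b hairpin lie within the RefSeq span of their Cajal body RNA, and 64 of 65 nt of the Mir1843a hairpin do. These 3 microRNA genes had 0 reads in all 4 libraries. Fragments on a hairpin can fall on both genes and be assigned to none, so these counts do not measure the microRNAs. The counts of the Cajal body RNAs can lack such fragments too. Scarna3b had 3 reads in High and 1 read in Low whole-cell RNA and 0 in both pulldowns, and Scarna3a had 0 reads throughout, so that Scarna13 alone of the 3 was read in numbers (96 and 61 reads in the pulldowns, 119 and 87 in whole-cell RNA).

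AF357425 itself (ENSMUSG00000088294, GRCm38.p6 chromosome 12, 109636012 to 109636080, inside the long noncoding RNA gene Rian) had 0 reads in every library. With a limit of 3 reads for a count of 0, this allows up to 0.116 CPM in the High pulldown, 0.108 CPM in the Low pulldown, 0.136 CPM in High whole-cell RNA and 0.138 CPM in Low whole-cell RNA, so the labels of the states could not be checked by their target. Rian, its host, had 2675 and 3110 reads in the High and Low pulldowns and 7421 and 7686 reads in High and Low whole-cell RNA. AF357341 and AF357428, which lie further along chromosome 12 at 109681519 and 109679945, had 1 and 0 reads in the High pulldown and no read in the Low pulldown. In whole-cell RNA AF357341 had 9 reads in either state, and AF357428 had 6 reads in High and 5 reads in Low. AF357399, the fourth ID of these names, is annotated on chromosome 7 (28351540 to 28351633) inside the ribosomal protein gene Rps16, and so outside the Dlk1-Dio3 locus of chromosome 12. It had 5 and 2 reads in the High and Low pulldowns and 23 and 12 reads in High and Low whole-cell RNA. None of the 4 reached a mean of 1 CPM, and the group summed to 6 reads against 2 in the pulldowns and 38 against 26 in whole-cell RNA.

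Most of these RNAs gave few reads or none. Of the 182 IDs, 102 had 0 reads in all 4 libraries, 80 had at least 1 read and 53 had at least 10 reads over the 4 libraries together. At least 1 read was seen for 47 and 51 IDs in the High and Low pulldowns and for 72 and 73 IDs in High and Low whole-cell RNA. The 17 IDs of Snord116, brain-expressed C/D box snoRNAs of the imprinted Prader-Willi region, had 0 reads together. Snhg14, the gene that spans them, had 110 and 58 reads in the High and Low pulldowns. In High and Low whole-cell RNA it had 15 and 17 reads. Whether Snord116 fragments fell on more than 1 gene or place and went uncounted was not tested. The 10 IDs of the U3 genes, which share near-identical copies, had 4 reads in total, and Rnu6 (U6) and Rpph1 (the RNA of RNase P) had 1 read each. Fragments that did not align to a single place, which such copies give, were not counted and made up 18.3% and 17.8% of the pulldowns and 11.3% and 11.2% of the whole-cell libraries, so these counts bound uniquely placed reads and not the amount of RNA. Among C/D box IDs the 25 IDs with at least 10 reads had a median RefSeq length of 68 nt, and the 61 IDs with 0 reads had 90 nt. In the H/ACA box family the medians were 128 nt over 11 IDs and 121 nt over 23 IDs. The 61 C/D box IDs with 0 reads include the 17 Snord116 IDs (90 or 94 nt) and U3 copies (212 to 218 nt). Their longer median is therefore not read as an effect of length. RefSeq spans can be shorter than the RNA that was counted, as with the 61 nt given for Scarna2, so no level was compared between RNAs per length.

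The families differed in which kind of library held their reads. C/D box RNAs summed to 586 reads (22.7 CPM, 20.9 to 24.6) in the High pulldown, 1387 reads (49.8 CPM, 47.2 to 52.5) in the Low pulldown, 429 reads (19.4 CPM) in High whole-cell RNA and 331 reads (15.3 CPM) in Low whole-cell RNA. H/ACA box RNAs summed to 112 and 98 reads (4.33 and 3.52 CPM) in the High and Low pulldowns and to 296 and 328 reads (13.4 and 15.1 CPM) in High and Low whole-cell RNA. In both states the C/D box sum was higher and the H/ACA box sum lower in the pulldown than in whole-cell RNA by library totals. Without Snord17 the C/D box sum of High was lower in the pulldown, with a log2 ratio of -0.81. The H/ACA box sum had -1.63 in High and -2.10 in Low, against medians of -2.16 and -1.76 over all genes. With mitochondrial ribosomal RNA left out of the totals, it had -0.18 (-0.51 to 0.14) in High and -0.79 (-1.13 to -0.46) in Low. Cajal body RNAs held 1559 and 876 reads in the High and Low pulldowns and 2683 and 2665 reads in High and Low whole-cell RNA, of which Scarna2 alone gave 56.1% and 53.4% in the High and Low pulldowns and 94.9% and 95.9% in High and Low whole-cell RNA. The snRNAs held 198 and 610 reads in the High and Low pulldowns, against 71 and 40 reads in High and Low whole-cell RNA. Without Rnu5g the snRNA sum of High had a log2 ratio of pulldown over whole-cell of -0.32 (-0.85 to 0.21). Rn7sk, the 7SK RNA that holds back the elongation factor P-TEFb, had 84.1% of all reads of the 182 IDs.

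**Figure D1:**
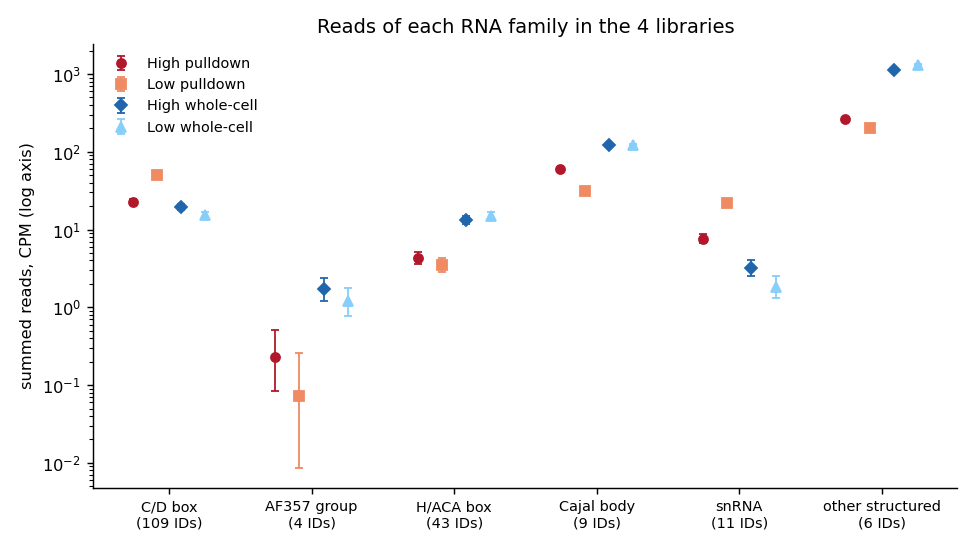
Summed reads of each family in CPM (log axis) in the High pulldown, Low pulldown, High whole-cell and Low whole-cell libraries; bars are exact 95% counting intervals. C/D box RNAs and snRNAs stand higher in the pulldowns than in whole-cell RNA, and H/ACA box, AF357 and other structured RNAs stand lower. Cajal body RNAs stand lower too, with log2 ratios of -1.01 in High and -1.96 in Low, which turn to 2.08 and 1.56 without Scarna2. In High, the C/D box and snRNA sums turn to log2 ratios of -0.81 without Snord17 and -0.32 without Rnu5g. With mitochondrial ribosomal RNA left out of the totals, the H/ACA box sum of High has a log2 ratio of -0.18 (-0.51 to 0.14).

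The balance between the 2 snoRNA families needs no scaling between libraries. Of the summed reads of both, C/D box RNAs gave 84.0% (exact 95% interval 81.0 to 86.6) in the High pulldown and 93.4% (92.0 to 94.6) in the Low pulldown, against 59.2% (55.5 to 62.8) in High whole-cell RNA and 50.2% (46.3 to 54.1) in Low whole-cell RNA. The shares of both pulldowns lay above those of both whole-cell libraries. Without Snord17 and Snora23, the leading snoRNA of each family, they were 92.3% and 97.2% in the High and Low pulldowns and 58.4% and 48.9% in High and Low whole-cell RNA. This and the next omission were chosen after seeing the data. Without Snord83b, Snord92 and Snord118 as well, the shares were 88.5% and 85.7% in the pulldowns, with overlapping intervals, and 55.8% and 46.1% in whole-cell RNA. Single C/D box RNAs did not all follow the sum. Of the 25 with at least 10 reads, 4 (Snord17, Snord118, Snord13 and Snord73a) had a higher value in the pulldown in both states and 14 a lower one. Of 12 H/ACA box RNAs 1 (Snora23) was higher in both and 10 lower. Most genes were lower as well: of all 12795 genes measured, 674 were higher in both states and 11261 lower. Those genes passed another minimum level, at which 2 of 6 C/D box RNAs were higher in both and 2 lower. For the 3 H/ACA box RNAs at that level the counts were 1 and 2. A lower value alone therefore does not set an RNA of either family apart from other genes.

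The fibrillarin pulldown against whole-cell RNA of the same state asks which of these RNAs were recovered with fibrillarin. Rates were compared by library totals, and an RNA was called where its whole interval lay beyond 2-fold in both states. Pulldown and whole-cell libraries also differ in ribosomal depletion and in the kind of library, which cannot be told apart from the antibody. The labels name the pulldowns RIP-Seq and the whole-cell libraries long RNA-Seq. Few whole-cell reads therefore need not mean little RNA, and loss of short RNAs there was not tested. No pulldown with a control antibody was analysed here. Averaged over the 4 libraries, 17 of the 182 IDs reached 1 CPM; 5 were called higher in the pulldown, against 1.56% of all 12795 genes measured, and 4 lower, against 59.7% of all genes. Most genes lie below 0 on this scale, with a median log2 ratio of -2.16 in High and -1.76 in Low.

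Of the C/D box RNAs, Snord17 and Snord118 were called higher in the pulldown. Snord17, inside the sorting nexin gene Snx5, had 345 and 364 reads in the High and Low pulldowns and 69 and 58 reads in High and Low whole-cell RNA. Its log2 ratio of pulldown over whole-cell was 2.09 (1.72 to 2.49) in High and 2.29 (1.89 to 2.72) in Low, with overlapping intervals, while Snx5 had -2.03 in High and -1.24 in Low. Snord118, the U8 RNA required for maturation of the large ribosomal subunit RNAs, overlaps no other gene (chromosome 11, 69073426 to 69073562). It had 76 and 475 reads in the High and Low pulldowns and 10 and 8 reads in High and Low whole-cell RNA, which gave 2.70 (1.74 to 3.82) in High and 5.53 (4.54 to 6.75) in Low. Snord13, the U13 RNA, named after its values were seen, had 15 and 32 reads in the High and Low pulldowns and 1 read in either whole-cell library, and did not reach a mean of 1 CPM.

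Among the Cajal body RNAs, Scarna9 and Scarna17, known from human as C/D type guides, were called higher in the pulldown. Scarna9 (inside Cep295) had 386 and 242 reads in the High and Low pulldowns and 3 and 4 reads in High and Low whole-cell RNA, a log2 ratio of 6.78 (5.22 to 9.06) in High and 5.56 (4.18 to 7.45) in Low. Scarna17 had 119 and 87 reads in the pulldowns and 2 reads in either whole-cell library, with 5.67 (3.78 to 8.73) and 5.08 (3.19 to 8.15). Scarna2, also of C/D type in human, had 875 and 468 reads in the High and Low pulldowns and 2545 and 2557 reads in High and Low whole-cell RNA and was called lower (-1.77 and -2.81). Scarna13, an H/ACA type guide in human, had -0.54 (-0.94 to -0.14) and -0.87 (-1.37 to -0.38) and was not called. The snRNA gene Rnu5g (U5, chromosome 9) was called higher, with 138 and 516 reads in the High and Low pulldowns and 7 and 0 reads in High and Low whole-cell RNA, a log2 ratio of 4.07 (2.99 to 5.41) in High and a rate at least 134-fold higher in Low by a limit of 3 reads for the 0; the exact interval in Low, which also covers the counting error of the 516 reads, begins at a log2 ratio of 6.76.

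The H/ACA box RNAs at the other end were almost unread in the pulldown. Snora73b, a U17 RNA needed to process the small ribosomal subunit RNA, had 0 reads in both pulldowns and 29 and 101 reads in High and Low whole-cell RNA, at least 11.3-fold lower in the High pulldown and at least 43.2-fold lower in the Low pulldown by a limit of 3 reads per library. The exact intervals, which also cover the counting error of the whole-cell reads, end at log2 ratios of -3.11 in High and -5.11 in Low. Snhg3, the gene that spans Snora73b, likewise had 0 reads in both pulldowns, against 211 and 170 reads in High and Low whole-cell RNA. Whether pulldown fragments of this locus fell on more than 1 gene and were left unassigned was not tested. Snora17 had 0 and 2 reads in the pulldowns and 54 and 51 reads in whole-cell RNA. Snora47 had 1 read in either pulldown and 42 and 28 reads in whole-cell RNA, and Snora31 had 3 and 1 reads, against 32 and 26. Snora23 (inside the importin gene Ipo7) stood apart from them with 92 and 69 reads in the pulldowns and 40 and 43 reads in whole-cell RNA, 0.97 (0.42 to 1.55) in High and 0.32 (-0.25 to 0.91) in Low. Rn7sk was called lower, with 6810 and 5667 reads in the pulldowns and 24650 and 28644 reads in whole-cell RNA (-2.08 and -2.70). With mitochondrial ribosomal RNA left out of the totals, 7 of the 17 were higher and 2, Snora73b and Snora17, lower. The calls of Rn7sk and Scarna2 therefore depend on those totals. No share over all genes is given for this scaling, so the counts of 7 and 2 cannot be set against one.

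**Figure D2:**
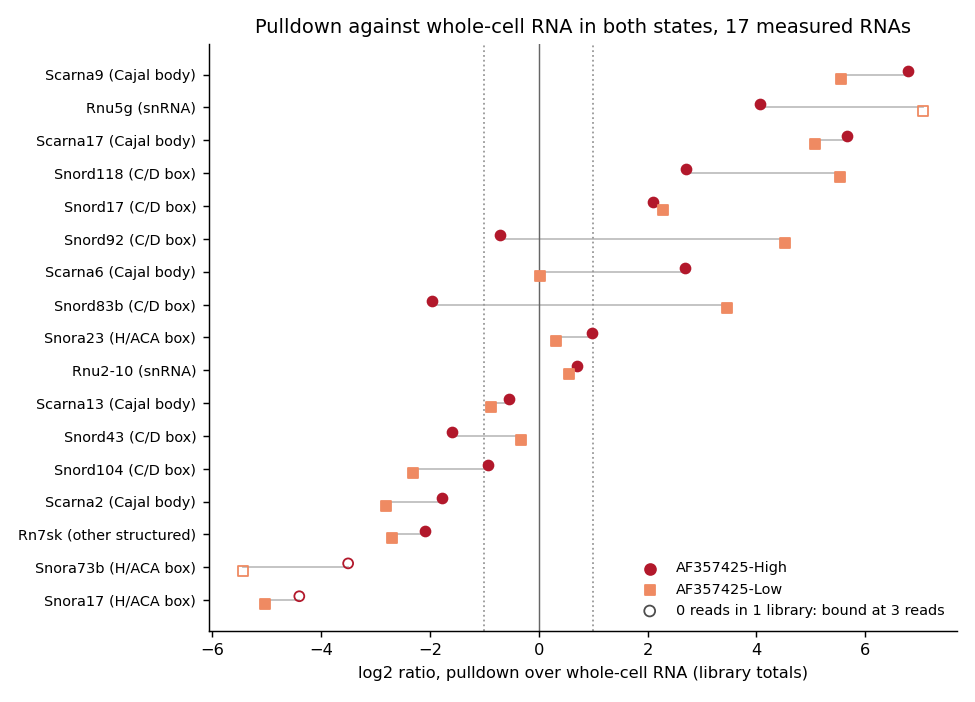
Log2 ratio of pulldown over whole-cell RNA by library totals for the 17 IDs whose 4-library mean reached 1 CPM, circles for AF357425-High and squares for AF357425-Low; open symbols are bounds where a library had 0 reads and dotted lines mark 2-fold. Snord83b lies below 0 in High (-1.96, -3.57 to -0.60) and above 0 in Low (3.46). Snord92 has -0.71 in High, with an interval across 0 (-2.71 to 1.16), and 4.53 in Low. Snord17 lies near 2 in both states. The median over all genes measured is -2.16 in High and -1.76 in Low.

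Between the states, the pulldown of AF357425-High was set against that of AF357425-Low to find RNAs recovered unequally with fibrillarin. After scaling by the trimmed mean of M values (TMM), 14 of the 182 IDs had a mean of at least 1 CPM. Of these 2 were called higher in High, against 3.43% of all 10736 genes measured, and 4 lower, against 2.9% of all genes. By family, 3 of 4 C/D box RNAs and 1 of 3 snRNAs were called lower, and 2 of 5 Cajal body RNAs were called higher. All 5 Cajal body RNAs had positive ratios (median 1.07, against -0.01 over all genes). The difference between families was not tested. Snord83b and Snord92 reached the mean of 1 CPM through the Low pulldown alone, and Scarna6 through the High pulldown alone. The family counts therefore depend on that minimum. Of 12 C/D box IDs with at least 10 reads in the pulldown pair, 3 were called lower and 2 higher. Over 15123 such genes the shares were 5.0% and 5.72%. Neither the H/ACA box RNA measured, Snora23, nor Rn7sk was called.

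Snord83b (chromosome 15, 80078503 to 80078579, inside the ribosomal protein gene Rpl3) had 6 reads (0.232 CPM) in the High pulldown and 226 reads (8.12 CPM) in the Low pulldown, a log2 ratio of -4.83 (-6.30 to -3.69). Snord92 (chromosome 17, 71631279 to 71631361, inside the nucleolar protein gene Wdr43) had 5 reads (0.193 CPM) in the High pulldown and 148 reads (5.32 CPM) in the Low pulldown, a ratio of -4.49 (-6.13 to -3.23). In whole-cell RNA Snord83b had 20 reads in High and 16 in Low, and Snord92 had 7 in High and 5 in Low. The Low pulldown alone of the 4 libraries therefore held more than 20 reads of either. Snord118 was lower as well (-2.24, -2.61 to -1.89), but with 76 reads in the High pulldown it stayed above its 10 whole-cell reads. Snord17, the C/D box RNA with most reads, had 0.32 (0.11 to 0.54) and was not called; by library totals it had 0.03.

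Each of the 2 snoRNAs shares its host with another C/D box snoRNA of the list, and the split of reads within a host needs no scaling. Snord83b and Snord43, a guide for the small subunit RNA, both lie in Rpl3. Snord83b took 26.1% of the reads of the pair (6 against 17 reads of Snord43; exact 95% interval 10.2 to 48.4) in the High pulldown and 86.3% (226 against 36 reads; 81.5 to 90.2) in the Low pulldown. In whole-cell RNA it took 31.2% (20.2 to 44.1) in High and 31.4% (19.1 to 45.9) in Low. Snord92 and Snord53 both lie in Wdr43. Snord92 took 23.8% (5 against 16 reads of Snord53; 8.22 to 47.2) in the High pulldown and 96.7% (148 against 5 reads; 92.5 to 98.9) in the Low pulldown, against 21.2% (8.98 to 38.9) in High and 21.7% (7.46 to 43.7) in Low whole-cell RNA. In both hosts the split in the High pulldown lay within the intervals of whole-cell RNA, and the split in the Low pulldown lay outside those of the other 3 libraries. Snord83b and Snord92 were called from these same reads and reached the minimum level through the Low pulldown alone. The split is therefore not a result separate from their calls. Neither host was called: Rpl3 had 2630 reads in the High pulldown and 4303 in the Low pulldown (-0.31, -0.38 to -0.24), and Wdr43 had 2097 and 2744 reads (0.01, -0.07 to 0.10).

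**Figure D3:**
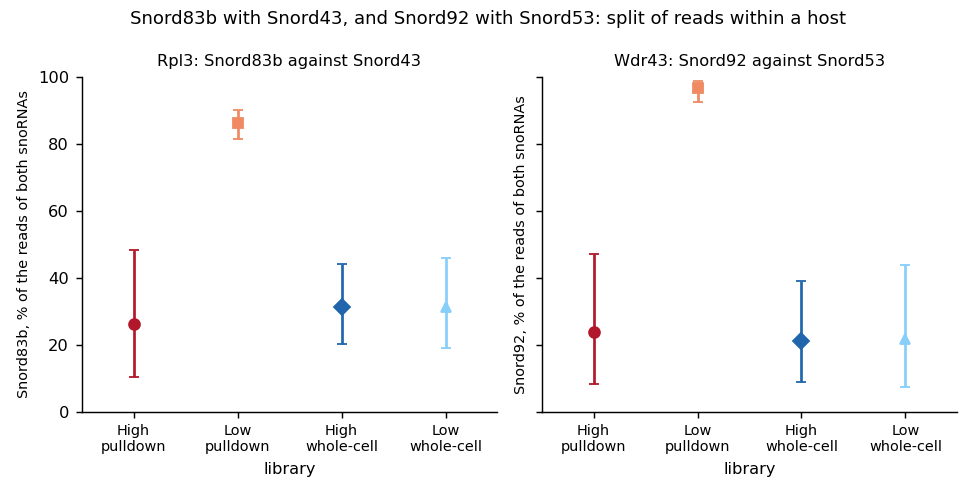
Share of Snord83b in the reads of Snord83b and Snord43 (left, host Rpl3) and of Snord92 in the reads of Snord92 and Snord53 (right, host Wdr43), in percent, for the 4 libraries, with exact 95% intervals. The Low pulldown stands at 86.3% and 96.7%, and the High pulldown and both whole-cell libraries lie between 21.2% and 31.4%. Snord83b and Snord92 were called lower in High from these same reads.

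The Cajal body RNAs went the other way in the pulldown. Scarna6 (chromosome 1, 87784571 to 87784818, inside the autophagy gene Atg16l1) had 83 reads in the High pulldown and 17 in the Low pulldown, a log2 ratio of 2.69 (1.92 to 3.53), and Scarna2 had 875 and 468 reads, a ratio of 1.30 (1.14 to 1.47). With library totals in place of TMM, Scarna2 had 1.01 (0.85 to 1.17) and was not called, while Scarna6 (2.39, 1.63 to 3.24) was. Scarna9 (386 and 242 reads in the High and Low pulldowns; 1.07, 0.84 to 1.31), Scarna13 (96 and 61 reads; 1.06, 0.58 to 1.54) and Scarna17 (119 and 87 reads; 0.85, 0.44 to 1.27) had intervals above 0 that crossed the 2-fold line. The host of Scarna6 had 115 and 170 reads (-0.16, -0.52 to 0.19), and that of Scarna9 had 615 and 1183 reads (-0.54, -0.69 to -0.40). Of 6 hosts measured in the pulldown for the 14 RNAs, none was called, and their ratios ran from -0.75 for Ipo7 to 0.01 for Wdr43. In none of the 6 did the interval of the small RNA overlap that of its host: Scarna6, Scarna9, Snora23 and Snord17 lay above their hosts, and Snord83b and Snord92 below theirs. Reads of a small RNA and reads of the unspliced intron around it cannot be told apart in these counts.

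**Figure D4:**
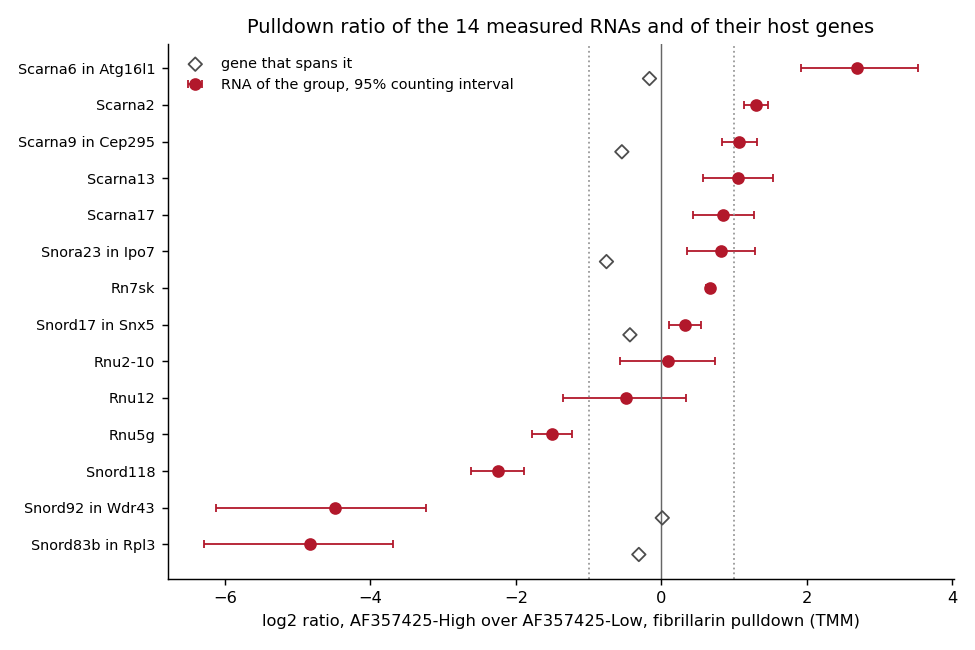
Log2 ratio of AF357425-High over AF357425-Low in the fibrillarin pulldown (TMM) for the 14 measured IDs with 95% counting intervals, and, as open diamonds, the ratio of the gene that spans each where it was measured; dotted lines mark 2-fold. Snord83b, Snord92, Snord118 and Rnu5g lie wholly below the line and Scarna6 and Scarna2 wholly above it, while the 6 hosts lie between -0.75 and 0.01.

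Among snRNAs and other structured RNAs of the pulldown, Rnu5g was called lower, with 138 reads in the High pulldown and 516 in the Low pulldown (-1.50, -1.78 to -1.23). Rnu2-10 (U2) had 38 and 47 reads (0.09, -0.56 to 0.74) and Rnu12, the U12 RNA of the minor spliceosome, had 20 and 37 reads (-0.49, -1.35 to 0.34), so neither differed beyond counting error. Rn7sk had 0.67 (0.61 to 0.72) and Snora23 0.82 (0.35 to 1.29). The other IDs lay below a mean of 1 CPM. Counting every ID with at least 10 reads in the 2 pulldowns together, 26 in all, 4 were called higher and 4 lower, against 5.72% and 5.0% of 15123 genes. The calls this added, named after their values were seen, were Snord98 (inside Ccar1; 31 reads in the High pulldown and 1 in the Low pulldown; 5.36, 2.77 to 10.70) and Snord104 (29 and 7 reads; 2.45, 1.23 to 3.89). C/D box RNAs therefore had calls in either direction, but Snord98 and Snord104 passed the 10 reads through the High pulldown, where they were higher. Terc, the telomerase RNA, also named after its values were seen, had 13 reads in the High pulldown and 2 in the Low pulldown (3.10, 0.96 to 6.29).

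**Figure D5:**
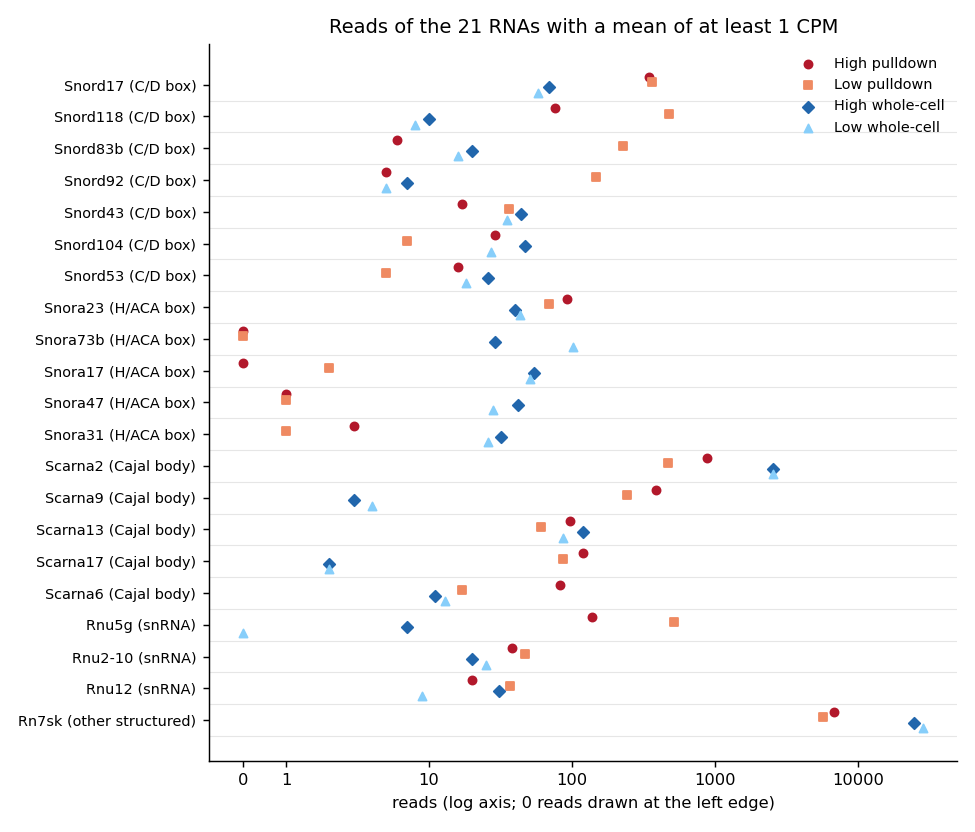
Reads (log axis) of the 21 IDs with a mean of at least 1 CPM in the pulldowns or in the whole-cell libraries, by family; circles and squares are the High and Low pulldowns, diamonds and triangles High and Low whole-cell RNA. The High and Low whole-cell symbols lie close together in most rows, and Snord83b and Snord92 in the Low pulldown (226 and 148 reads) stand away from the other 3 libraries.

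Whole-cell RNA of AF357425-High, set against that of AF357425-Low, shows whether the RNAs differed between the states without a pulldown. Of 13 IDs with a mean of at least 1 CPM, none was called higher, against 0.111% of all 13519 genes measured, and 1 was called lower, against 0.133%. The RNA called lower was Snora73b, with 29 reads in High and 101 in Low (-1.89, -2.54 to -1.28), while its host Snhg3 had 211 reads in High and 170 in Low (0.22) and, like Snora73b, no read in either pulldown. Fewer cells with an RNA and less of it per cell cannot be told apart in such bulk samples. The ratios of the other 12 lay between -0.41 for Rnu2-10 and 0.71 for Snord104. The 4 C/D box RNAs measured were all positive (median 0.34), among them Snord43 with 44 reads in High and 35 in Low (0.24, -0.43 to 0.92) and Snord53 with 26 and 18 reads (0.44, -0.48 to 1.39). Scarna2 had 2545 and 2557 reads (-0.10, -0.18 to -0.02) and Rn7sk 24650 and 28644 reads (-0.31, -0.33 to -0.28). Below a mean of 1 CPM, and named after their values were seen, Rnu12 had 31 reads in High and 9 in Low (1.69, 0.59 to 2.95) and Snord70, inside Nop58, had 16 and 3 reads (2.32, 0.52 to 4.75), neither past the line.

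Further RNAs were read in small numbers. Among C/D box RNAs, Snord8 had 0 reads in both pulldowns and 15 and 11 reads in High and Low whole-cell RNA, and Snord71 had 4 and 3 reads in the pulldowns and 21 and 20 reads in whole-cell RNA. Snord49a had 0 and 9 reads in the High and Low pulldowns and 22 and 20 reads in High and Low whole-cell RNA. These C/D box RNAs thus had fewer reads in the pulldown, unlike Snord17. Snord11 and Snord70 lie together in Nop58, which encodes a core protein of the C/D box particle: Snord11 had 4 and 14 reads in the pulldowns and 7 and 4 reads in whole-cell RNA, and Snord70 had 1 and 3 reads in the pulldowns and 16 and 3 reads in whole-cell RNA. Of the H/ACA box RNAs, Snora30 had 3 reads in either pulldown and 25 and 16 reads in whole-cell RNA, and Rnu73b had 4 and 10 reads in the pulldowns and 21 and 18 reads in whole-cell RNA. Rnu11, the U11 RNA of the minor spliceosome, had 0 reads in both pulldowns and 13 and 5 reads in High and Low whole-cell RNA, whereas Rnu1b6, a U1 gene, had 2 and 10 reads in the pulldowns and 0 in whole-cell RNA. Vaultrc5, the RNA of the vault particle, had 3 and 5 reads in the pulldowns and 16 and 22 reads in whole-cell RNA. Rmrp, the RNA of RNase MRP, had 0 reads under both of its IDs. These RNAs were chosen after their values were seen, and none reached a mean of 1 CPM in either state comparison.

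The log2 ratio of pulldown over whole-cell in High minus that in Low uses all 4 libraries, and 8 IDs had the 10 reads in each that it was given for. Scarna6 (3.02, 1.64 to 4.40) and Scarna2 (1.40, 1.22 to 1.58) were higher beyond 2-fold, against 2.65% of all 11356 genes, and none was lower, against 1.66%. Rn7sk had 0.97 (0.92 to 1.03), Snora23 1.01 (0.24 to 1.78) and Snord17 0.16 (-0.38 to 0.71). With at least 5 reads in each library, 15 IDs could be read, and Snord83b (-5.07, -6.57 to -3.56), Snord92 (-4.88, -6.98 to -2.79) and Snord118 (-2.47, -3.86 to -1.09) were then lower as well. No share over all genes is given at this lower limit, so the added calls cannot be set against one.

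Genes whose proteins make or bind these RNAs were followed as messenger RNAs. Of 50 such genes, 46 were measured in the pulldown and 49 in whole-cell RNA; 1 was called higher in the High pulldown, none was called lower there, and none was called in whole-cell RNA. Over all genes measured, 3.43% were called higher and 2.9% lower in the pulldown, and 0.111% and 0.133% in whole-cell RNA. The one called was Znhit6, an assembly factor of C/D box particles, with 733 reads in the High pulldown and 229 in the Low pulldown (2.08, 1.86 to 2.30) and 470 and 469 reads in High and Low whole-cell RNA. Coil, which encodes the Cajal body scaffold coilin, had 37 and 117 reads in the pulldowns (-1.26, -1.83 to -0.72) and 0.12 (-0.20 to 0.44) in whole-cell RNA. Mepce and Larp7, whose proteins cap and hold the 7SK RNA, had 0.73 (0.47 to 1.00) and 0.21 (0.03 to 0.38) in the pulldown and -0.04 (-0.19 to 0.10) and 0.05 (-0.14 to 0.24) in whole-cell RNA. The 14 Integrator genes, which cut the 3′ ends of snRNAs, had medians of -0.03 in the pulldown and 0.01 in whole-cell RNA, and the 5 genes of the snRNA promoter complex had 0.40 and -0.0018.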

How the data were processed

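The values are counts of fragments per Ensembl gene, deposited by the authors as one table for the 2 pulldown libraries and one for the 2 whole-cell libraries. The submitters' processing notes name cutadapt 2.4, STAR 2.6.0c, HTSeq 0.9.1, StringTie 1.3.4 and the build GRCm38; for annotation and strand setting nothing is given in the sources used here. Gene symbols were found for 55450 of 55536 IDs, and positions were taken by symbol from RefSeq (GRCm38.p6). Summary lines of HTSeq stayed out of all totals. High and Low were compared with TMM factors from edgeR 4.0.16 under R 4.3.3, and pulldown with whole-cell RNA by library totals, with scipy 1.17.1 under Python 3.11.15. Shares and ratios carry exact (Clopper-Pearson) 95% intervals, and differences of log2 ratios a normal one. Measured means a mean of 1 CPM or more in the libraries of a comparison, and called means an interval wholly beyond 2-fold. The code was tested on simulated data. The RNAs measured between the states, the AF357 IDs and the leading RNA of each family are named; any other was named with its values known. Members and lists were chosen with earlier results of these data known. Other scalings, minimum levels, a 1.5-fold line and omitted members were tried as alternatives.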

Additional observations from a re-analysis of the deposited data

Results flagged for a closer look

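Several values between the states lay on opposite sides of 0 in the pulldown and in whole-cell RNA, and with 1 library per group the difference between them was not tested. On the log2 scale of High over Low, Rn7sk had 0.67 in the pulldown and -0.31 in whole-cell RNA, and Scarna2 had 1.30 and -0.10. The summed reads of the C/D box family had -0.84 in the pulldown and 0.28 in whole-cell RNA. Those of the H/ACA box family had 0.59 and -0.24, and those of the Cajal body family 1.23 and -0.081. The snRNA sum had -1.22 in the pulldown and 0.74 in whole-cell RNA, and the sum of the other structured RNAs, nearly all Rn7sk, had 0.67 and -0.31. By library totals some intervals crossed 0. In whole-cell RNA Scarna2 had -0.032 (-0.11 to 0.047) and the Cajal body sum -0.016 (-0.094 to 0.062). The H/ACA box sum had 0.30 (-0.11 to 0.70) in the pulldown and -0.17 (-0.41 to 0.057) in whole-cell RNA. Those of Rn7sk and of the C/D box, snRNA and other structured sums did not cross 0. The sign of some sums turned with their members, each to a value whose interval crosses 0. The H/ACA box sum of the pulldown was -0.14 (-1.03 to 0.74) without Snora23. The Cajal body sum of whole-cell RNA was 0.26 (-0.11 to 0.64) without Scarna2. The C/D box sum of whole-cell RNA was -0.091 (-0.90 to 0.72) without members that overlap another gene.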

How the results depend on the processing

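No paired analysis was possible because each group has 1 library, and for the same reason no replicate could be left out. Depth limits most members, which have few reads or none, and the cause of the changes below was not tested. In the pulldown 2 members were called higher and 4 lower in High; the higher count was 1 by library totals, 1 by totals without mitochondrial ribosomal RNA, 4 with no minimum level, 1 at 5 CPM, 4 at a 1.5-fold line and 1 among members that overlap no gene, and the lower count was 2 at 5 CPM and 1 among members that overlap no gene. In whole-cell RNA the 1 lower call became 0 at 5 CPM and 0 among members that overlap no gene. Of pulldown over whole-cell RNA, the 4 lower calls became 2 by TMM, 2 without mitochondrial ribosomal RNA, 8 with no minimum level and 2 at 5 CPM. Members whose ratio changed between states beyond 2-fold were 2, and 5 at 5 reads. For these alternatives no share over all genes is given, so their counts of calls cannot be set against one. Members with at least 10 reads numbered 18 and 21 in the High and Low pulldowns and 31 and 26 in High and Low whole-cell RNA, against 47, 51, 72 and 73 with any read.

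For family sums, the log2 ratio of High over Low in the pulldown became, by library totals, -1.14 for C/D box, 0.94 for Cajal body, -1.52 for snRNA and 0.37 for other structured RNAs. Without the leading member it became -1.68 for C/D box, -0.25 for snRNA and 1.59 for other structured RNAs. For H/ACA box it became -0.14 (a reversal, with an interval across 0). Without overlapping members it became -2.0 for C/D box and -0.13 for snRNA. In whole-cell RNA the sign of the C/D box sum turned to -0.091 (-0.90 to 0.72) without overlapping members. That of the Cajal body sum turned to 0.26 (-0.11 to 0.64) without Scarna2, and both intervals cross 0. Other structured RNAs had -0.24 by totals, -0.28 by median-of-ratios factors and -0.55 without Rn7sk.

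For pulldown over whole-cell RNA without mitochondrial ribosomal RNA, the High state gave 1.67 for C/D box, -1.44 for the AF357 group, -0.18 for H/ACA box, 0.44 for Cajal body (a reversal), 2.70 for snRNA and -0.63 for other structured RNAs, and the Low state gave 3.02 for C/D box, -0.79 for H/ACA box, -0.65 for Cajal body, 4.89 for snRNA and -1.38 for other structured RNAs. Without the leading member, High gave -0.81 for C/D box, 2.08 for Cajal body and -0.32 for snRNA. All of these were reversals, that of snRNA with an interval across 0. High then gave -3.91 for H/ACA box and -0.81 for other structured RNAs. Low then gave 1.56 for Cajal body (a reversal), -3.66 for H/ACA box, 0.87 for snRNA and -2.60 for other structured RNAs. The C/D box share of snoRNA reads became, without Snord17 and Snora23, 92.3% in the High and 97.2% in the Low pulldown. It was 84.6% in the Low pulldown without Snord83b, Snord92 and Snord118, and without these and Snord17 and Snora23 88.5% in the High pulldown, 85.7% in the Low pulldown and 46.1% in Low whole-cell RNA.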
